A study of Mus musculus with 131 samples.

Results

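Methylation of hepatocyte DNA was compared between 3 week WT mice and adult injected controls by reduced representation bisulfite sequencing (RRBS), a method that reads CpG methylation in the part of the genome cut into short pieces by a restriction enzyme. The table gives the methylated fraction per 100 bp tile, and values came from 2 WT mice of 3 weeks and from 6 control mice of 15 weeks. All were C57Bl mice. The 3 week mice were not injected, whereas the controls, labelled WT, received AAV8 that carries Cre under the hepatocyte-specific Tbg promoter, 3 mice at 1 day and 3 mice at 3 weeks of age. A tile was tested when all 8 mice had a value, which held for 389722 of 913286 tiles. It was called changed when the means of the 2 ages differed by at least 35 percentage points and no 3 week value lay inside the range of the controls. By this rule 2695 tiles were higher at 3 weeks and are called lost, since the adults had lower methylation, and 650 were lower at 3 weeks and are called gained. These 3345 changed tiles are 0.692% (lost) and 0.167% (gained) of those tested.

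The sample list describes 4 mice in each of these 3 groups, so part of each was used here. Most columns carry only an animal number and were placed in a group through the expression table, where the same number stands beside the condition. In the RNA libraries of the same animals, Xist, the RNA of the inactive X chromosome, was between 48.0 and 77.1 FPKM in the 3 mice of 3 weeks, and the Y-linked genes Ddx3y, Eif2s3y, Kdm5d and Uty were at most at 0.0664 FPKM in them. Among the 6 controls, mouse 3 of those injected at 3 weeks had 88.1 FPKM of Xist and 0 FPKM of these Y-linked genes, and the other controls had the reverse pattern. The 3 week mice were therefore female by these genes and 5 of the 6 controls male. Age, injection and, in all but 1 adult, sex cannot be told apart in these 8 mice. The cells were sorted by size and absence of CD45, and 9 of 10 hepatocyte markers were at 96.7 FPKM or more in every library of the 2 ages. Among them F2 was called higher at 3 weeks by limma, and Apob and Ttr lower. The remaining one, Serpina1b, is listed at 0 in all 6 controls and in 3 week mouse 1, and has near-identical copies.

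Hepatocytes are the main cells of the liver and take over its metabolic work step by step after birth, when the diet passes from milk to solid food. In their DNA, as elsewhere, methyl groups sit on the cytosine of CpG pairs. TET enzymes oxidise them to 5-hydroxymethylcytosine (5hmC), a step on the way to unmethylated cytosine, and the DNMT enzymes add them. Enhancers, the distal elements that raise transcription, carry the histone marks H3K4me1 and, when active, H3K27ac, and those of expressed genes are commonly unmethylated.

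Tiles with large differences in 3 lists of genes are printed here, because they show the CpG pairs that a changed tile rests on and where it lies. Each is the + strand of mm9, 5′ to 3′, with CpG pairs in capitals. The lost tiles of lipid genes lay in introns of Acly at chr11:100386501-100386600 and of Scp2 at chr4:107748801-107748900.
Acly: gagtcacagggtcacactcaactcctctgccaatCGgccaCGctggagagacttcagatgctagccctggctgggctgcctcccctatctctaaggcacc
Scp2: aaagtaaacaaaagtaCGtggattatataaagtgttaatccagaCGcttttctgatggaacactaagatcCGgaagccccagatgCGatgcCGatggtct

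Among insulin signaling genes, the lost tiles lay in introns of Foxo3 at chr10:41946101-41946200, of Gsk3b at chr16:38118001-38118100 and of Insr at chr8:3270201-3270300.
Foxo3: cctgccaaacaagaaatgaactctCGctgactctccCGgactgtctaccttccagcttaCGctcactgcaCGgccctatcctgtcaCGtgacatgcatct
Gsk3b: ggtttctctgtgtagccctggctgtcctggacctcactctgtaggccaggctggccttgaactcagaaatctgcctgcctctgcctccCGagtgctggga
Insr: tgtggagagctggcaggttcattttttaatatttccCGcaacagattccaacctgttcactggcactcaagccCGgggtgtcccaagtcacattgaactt

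Among urea cycle and amino acid genes, 2 adjacent tiles lay within 1 kb beyond Gnmt at chr17:46862001-46862100 and chr17:46862101-46862200, inside a neighbouring gene, and a tile lay within 1 kb beyond the end of Ass1 at chr2:31377001-31377100.
Gnmt, first tile: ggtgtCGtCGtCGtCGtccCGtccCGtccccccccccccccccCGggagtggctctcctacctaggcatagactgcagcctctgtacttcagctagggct
Gnmt, second tile: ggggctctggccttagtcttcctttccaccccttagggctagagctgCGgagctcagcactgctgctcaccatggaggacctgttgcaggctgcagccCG
Ass1: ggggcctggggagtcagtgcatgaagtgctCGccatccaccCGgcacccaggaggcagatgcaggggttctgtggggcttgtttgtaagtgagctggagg

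The gained tiles of a lipid gene with the largest differences lay in Acacb, in an intron at chr5:114624901-114625000 and in a coding exon at chr5:114698301-114698400.
Acacb, intron: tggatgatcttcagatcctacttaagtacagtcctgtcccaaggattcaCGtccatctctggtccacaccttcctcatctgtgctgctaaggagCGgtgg
Acacb, coding exon: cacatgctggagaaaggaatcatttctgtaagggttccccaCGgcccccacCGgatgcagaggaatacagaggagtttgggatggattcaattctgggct

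Lost tiles were highly methylated at 3 weeks and low or intermediate in the controls. Over the 2695 lost tiles, 3 week mouse 1 averaged 72.6% and mouse 2 averaged 76.0%. Controls injected at 1 day averaged 19.4% to 20.6%, and those injected at 3 weeks 21.3% to 25.3%, the highest being the mouse with Xist. The group means were 74.3% ± 2.44 (SD, n = 2) and 21.5% ± 2.22 (SD, n = 6). These values chose the tiles and are given as a description. The median difference was 49.5 points, and 1313 tiles (48.7%) differed by 50 points or more. In the controls 970 lost tiles were under 10%, 687 between 10% and 25%, and 1038 at 25% or above, so loss was partial at many of them. Just inside the limit, differences were 35.01, 35.02 and 35.03 points, and the nearest tiles outside it had 34.98, 34.93 and 34.93 points.

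Gained tiles were fewer and differed less. Over the 650 gained tiles, 3 week mouse 1 averaged 40.1% and mouse 2 averaged 32.0%, against 77.4% to 79.8% in the 6 controls. Their median difference was 40.7 points in favour of the adults, and 84 (12.9%) differed by 50 points or more. Just inside the limit, the differences were -35.01, -35.03 and -35.05 points, and just outside it -34.99, -34.98 and -34.97. For methylation as a whole, no difference passed the test. Averaged over all tested tiles it was 58.0% ± 0.0589 (SD, n = 2) at 3 weeks and 58.1% ± 0.183 (SD, n = 6) in the controls, a difference of -0.184 points. A two-sided exact permutation test over the 8 mice gave p = 0.214, where 28 relabelings allow no p below 0.0357. The median over tiles differed more, by -1.43 points (exact permutation p = 0.0714).

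**Figure D1:**
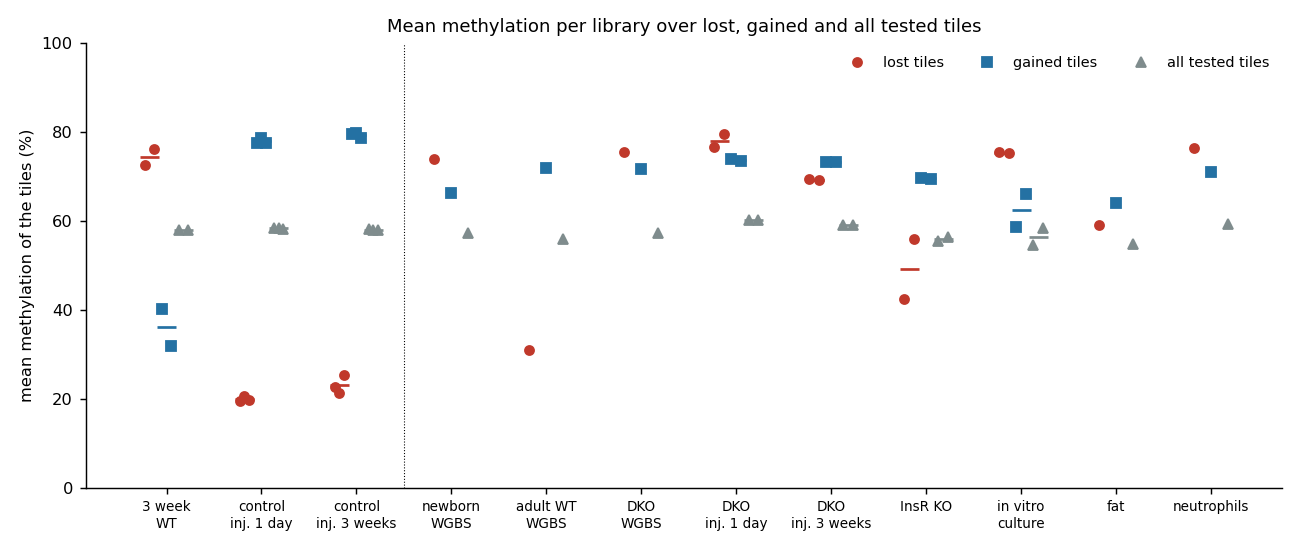
Mean methylation (%) over lost (circles), gained (squares) and all tested (triangles) tiles in each library, with bars at the mean of each group of 2 or 3. The groups left of the dotted line chose the tiles. Lost tiles lie at 72.6% and 76.0% at 3 weeks and at 19.4% to 25.3% in the controls, and the adult WT WGBS library is at 30.9%.

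Fitted per tile with limma, 1112 lost tiles had an adjusted p under 0.05 and a difference of 35 points (0.285% of tiles tested), and 96 gained tiles did (0.0246%). This fit used the same 8 mice as the rule and is no independent support. Each mouse was also left out of the call and read afterwards. The mice of the other age still chose those tiles, and no level for a mouse without change is at hand, so the values describe the left-out mouse and test nothing. Lost tiles called without mouse 1 numbered 4186, and mouse 1 averaged 58.6% at them, against 26.3% in the controls. It lay above all controls at 68.3% of them. For mouse 2 the corresponding values were 3298 tiles, 65.1% against 24.8%, and 78.4%. Gained tiles did not carry over in the same way. Without mouse 1 there were 4373, at which mouse 1 averaged 75.6%, near the 81.3% of the controls and far from the 35.5% of mouse 2. It lay below all controls at 25.7% of them. Mouse 2 averaged 72.6% at the 2302 gained tiles called without it and lay below all controls at 29.5%.

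Each control was left out in the same way. At lost tiles called without it, a control averaged between 21.1% and 30.0%, and it lay below both 3 week mice at 94.1% to 98.2% of them. The female control had the highest mean, 30.0% at 2946 tiles, where the 3 week mice averaged 74.5%. It was at least 35 points below them at 69.3% of those tiles, against 76.1% to 84.5% for the 5 other controls. It reached the range of the 3 week mice at 174 tiles (5.91%), against 49 to 114 tiles for the others.

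**Figure D2:**
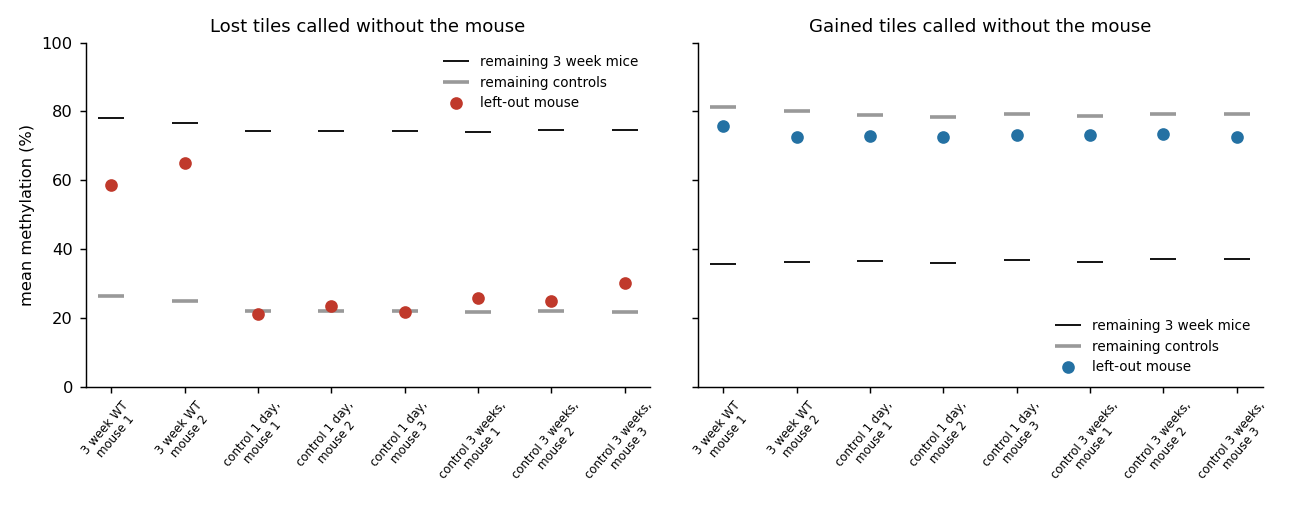
Mean methylation (%) of each mouse (dots) at the lost (left) and gained (right) tiles called without it, with the means of the remaining 3 week mice (thin bars) and remaining controls (thick bars). Each left-out 3 week mouse lies at 58.6% or 65.1% at lost tiles but at 75.6% or 72.6%, near the controls, at gained tiles.

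Whole-genome bisulfite sequencing (WGBS) gave levels that the rule did not use, from 1 newborn sample, whose age is labelled 1 week, and from 1 uninjected adult WT and 1 adult DKO sample. Its tiles are 200 bp long, so neighbouring RRBS tiles can share 1 WGBS value. The DKO lacks Tet2 and Tet3 in hepatocytes after Cre injection at 1 day. At the lost tiles, newborn WGBS averaged 73.8%, close to the 74.3% of the 3 week mice, and adult WT WGBS averaged 30.9%. Newborn was higher than adult at 96.8% of 2692 tiles, and at least 35 points higher at 1699 (63.1%), against 1.05% of all tested tiles. None of the lost tiles rose by 35 points. Adult WGBS was 9.40 points above the controls on average at the lost tiles, while over all tested tiles it was 1.99 points below. With 1 library each, these differences have no replicate error.

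At the gained tiles, WGBS showed no such change over most of the set. Newborn WGBS averaged 66.2% and adult WT WGBS 71.9%, and newborn exceeded the 3 week RRBS mean by 30.3 points on average. A rise of 35 points from newborn to adult was found at 44 of 639 gained tiles (6.89%), against 0.194% of all tested tiles. The gained tiles that passed limma had 73.0% and 79.9%. The exception was adjacency. Of the 650 tiles, 614 stood alone, with 69.2% in newborn and 72.9% in adult WGBS. The other 36 lay in 14 runs of 2 to 4 touching tiles, and these went from 14.9% to 54.9%, with 17 of 36 (47.2%) rising by 35 points.

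**Figure D3:**
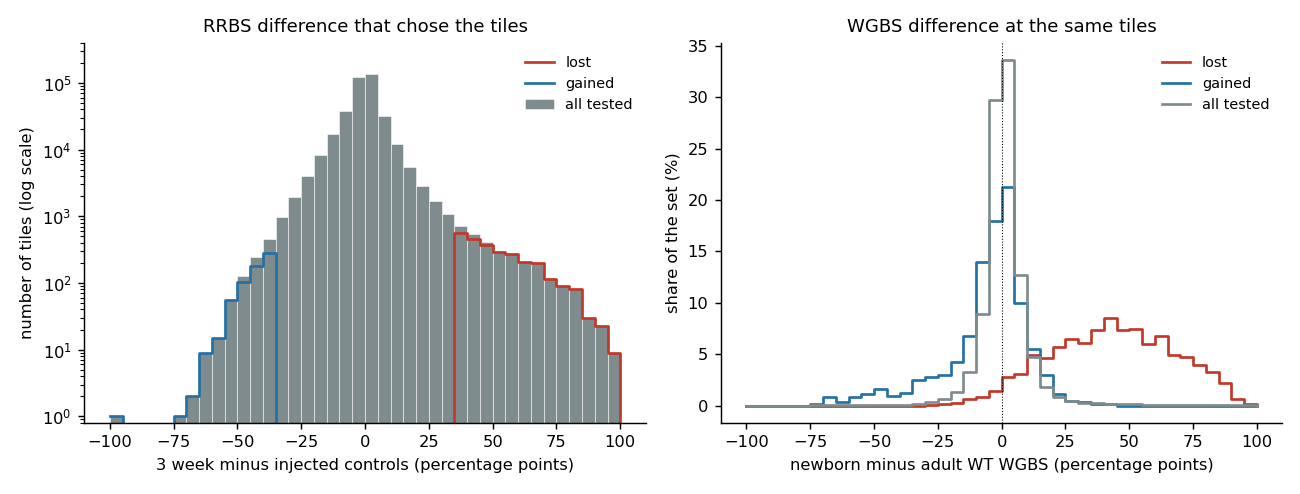
Left, number of tiles (log axis) by RRBS difference, 3 week minus injected controls, in 5-point bins, for all tested tiles (bars) and for lost and gained tiles (lines). Right, share of each set by WGBS difference, newborn minus adult WT. Lost tiles have a median WGBS difference of 42.8 points, whereas gained tiles centre near 0 with a median of -1.65.

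The lost tiles were then read in further libraries of the series, none of which the rule used. The sample list describes more mutant mice and cultures than were read here. Mean methylation was 76.6% and 79.4% in the 2 DKO mice injected at 1 day and 69.4% and 69.1% in those injected at 3 weeks, all of them adults. It was 42.4% and 55.9% in the 2 mice without the insulin receptor in hepatocytes (InsR KO), which had values at 2002 and 2140 of the tiles. In the paper these mice were given Cre right after birth and read as adults. Hepatocytes grown in vitro stood at 75.5% and 75.1%. The paper took such cultures from unsorted liver cells of newborn mice and grew them for weeks. Adult fat was at 59.1% and neutrophils at 76.3%, with 61.6% and 82.5% of tiles at 50% or more. The 4 DKO mice and both cultures of newborn cells thus lay in or near the range of the 3 week mice, and both InsR KO mice lay between the 2 ages. At gained tiles the DKO mice were at 73.1% to 73.9%, close to the controls.

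Lost tiles lay away from gene starts and inside genes. Promoters, taken from 1 kb before to 100 bp after a start, held 56 of them (2.08%), against 11.2% of all tested tiles. Introns held 47.4% and coding exons 15.0%, against 30.8% and 13.1% of all tested tiles, and 31.4% were intergenic against 40.2%. Only 3.49% lay within 1 kb of a start, against 21.2% of tested tiles, whereas 31.3% lay 1 to 10 kb away, against 18.3%. The median distance to a start was 18.5 kb, against 19.3 kb over all tested tiles. A tile must average at least 35% at 3 weeks to be called lost. Tiles low at both ages thus count among those tested but could not be lost, wherever they lay. Gained tiles were more often intergenic (53.4%), at a median distance of 44.8 kb. Lost tiles were found on every autosome.

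Changed tiles held few CpG pairs. Lost tiles averaged 2.83 CpG and gained tiles 2.60, against 4.60 over all tested tiles. The tiles at 70% or more in all 8 mice averaged 3.40, which is nearer to the changed tiles. Tiles with 3 or fewer made up 72.7% of lost, 80.2% of gained, 51.4% of all tested and 60.4% of these methylated tiles. By number of CpG pairs, the share called lost was 0.986% in tiles with 1 and 0.0263% in those with 10 or more. For gained calls the corresponding shares were 0.479% and 0.0454%. The SD of the difference between ages over tested tiles also changed with this number, from 12.2 points in tiles with 1 CpG to 2.68 points in those with 10 or more. Its part in the calls was not tested, and coverage per tile is not given.

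Short motifs were searched in the tile sequences on both strands. The STAT5 motif TTCNNNGAA was in 145 lost tiles (5.38%), against 2.19% of all tested tiles. The nuclear receptor motif AGGTCA was in 265 lost tiles (9.83%), against 4.80% of all tested tiles. The HNF6 motif ATCAAT was in 3.19% against 1.72%, the HNF4 motif AAAGTCCA in 0.445% against 0.254%, the FOXA motif TGTTTAC in 1.30% against 0.951%, and the GATA motif AGATAA in 4.23% against 2.90%. In the tiles at 70% or more in all 8 mice, the shares were 1.85% for the HNF6 motif, 0.204% for HNF4, 0.874% for FOXA and 2.86% for GATA. For the C/EBP motif TTGCNNAA the shares were 4.90% of lost and 4.06% of all tested tiles, and for the HNF1 motif GTTAAT 2.12% and 1.79%. Against the methylated tiles, with 4.81% and 2.05%, these motifs hardly differed. The SP1 motif GGGCGG was in 4.19% of lost and 10.7% of all tested tiles, but in 4.42% of the methylated ones. In gained tiles the STAT5 motif was found in 2.31% and the nuclear receptor motif in 3.38%. A match of letters is a description and not a bound site.

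Chromatin lists of hepatocytes set the lost tiles apart from the rest. Peaks of 5hmC, taken from hepatocytes of 20 days, covered 858 lost tiles, or 31.8% (Wilson 95% interval 30.1 to 33.6). The share was 4.70% of all tested tiles and 4.11% of tiles methylated at 70% or more in all 8 mice. Adult H3K4me1 peaks covered 72.8% (71.1 to 74.5) of lost tiles against 18.6% of all tested tiles, and H3K27ac peaks 55.3% (53.4 to 57.2) against 19.1%. Both marks overlapped at 51.2% of lost tiles, and H3K4me1 without H3K27ac at 21.6%. In the DKO the 2 marks covered 60.7% and 48.2% of lost tiles, against 18.5% and 21.9% of all tested tiles. The intervals count tiles and cover counting error only, since each mark is 1 library.

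Gained tiles were covered by H3K4me1 at 8.15% (6.29 to 10.5), by H3K27ac at 2.92% and by 5hmC at 6.31% (4.68 to 8.45), beside 3.82%, 2.06% and 4.11% of the constantly methylated tiles and 18.6%, 19.1% and 4.70% of all tested tiles. Open chromatin by ATAC-Seq covered 5.49% and 6.49% of lost tiles in the 2 WT libraries, against 6.36% and 6.57% of all tested tiles, which include many promoters, and 0.103% and 0.139% of the constantly methylated tiles. In the 2 DKO libraries it covered 1.41% and 1.89% of lost tiles, against 6.87% and 6.81% of all tested tiles and 0.0648% and 0.111% of the constantly methylated ones. Peaks of HNF6, a liver transcription factor, covered 0.816% and 1.71% of lost tiles in the 2 WT libraries, against 0.180% and 0.345% of all tested tiles. In the 2 DKO libraries HNF6 peaks covered 0.742% and 2.15% of lost tiles, against 0.488% and 1.41%.

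**Figure D4:**
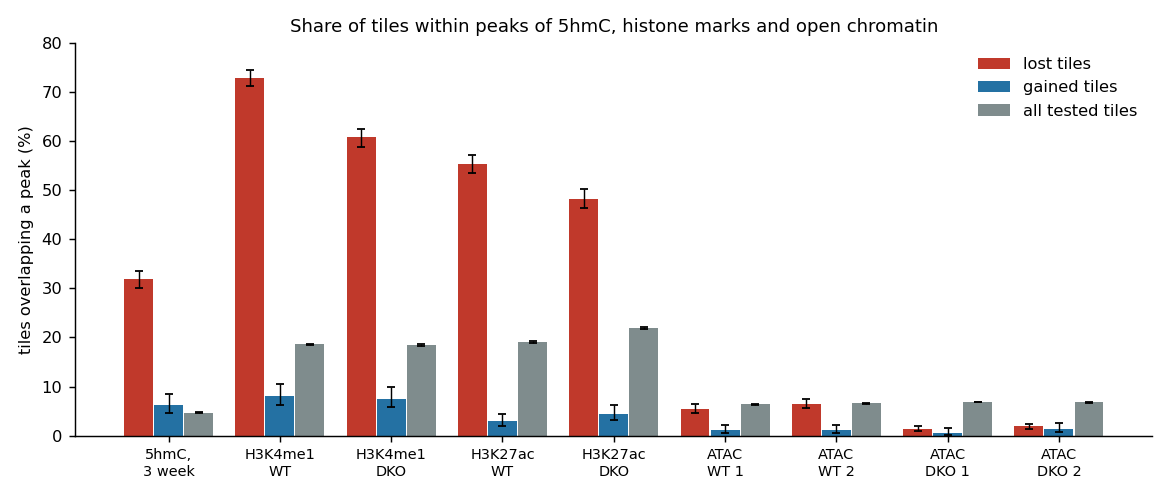
Share (%) of lost, gained and all tested tiles that overlap a peak by at least 1 bp, by peak list, with Wilson 95% intervals as error bars. 5hmC is from WT hepatocytes of 20 days and the other lists are from WT or DKO adults. Lost tiles reach 72.8% in WT H3K4me1 and 31.8% in 5hmC, and gained tiles stay at 8.15% and 6.31%.

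Neighbouring tiles tended to change together where methylation was lost. The 2695 lost tiles formed 2169 runs, of which 1726 were single tiles. Of 2481 tested tiles directly beside a lost tile, 1052 were lost too (42.4%), and the other 1429 had a median difference of 14.2 points, in the same direction at 83.4%. Beside gained tiles, 44 of 512 neighbours were gained (8.59%), and the others had a median of -4.62 points. The longest lost run held 6 tiles in Blm at chr7:87601301-87601900, with means of 68.5% at 3 weeks and 8.41% in the controls. A run of 5 tiles in Ece1 at chr4:137486901-137487400 fell from 60.8% to 6.27%. A run of 4 at chr10:76032501-76032900, at the end of 1700027D21Rik and 5.5 kb from the start of Ftcd, fell from 93.7% to 6.85%. The other runs of 4 tiles among the 5 longest lay in Tsku.

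Genes were taken to own tiles from 1 kb before their start to 1 kb beyond their end. Of 17232 protein-coding genes with a tested tile, 1121 (6.51%) owned a lost tile and 283 a gained one. Genes with a lost tile had a median of 20 tested tiles, against 11 over all genes, so they also offered more places to change. Gm20388, a gene model of 4434882 bp that spans many other genes, came first with 27 lost tiles. Ass1, which makes argininosuccinate in the urea cycle, and Ece1, a peptidase that makes endothelin, had 10 each. Nfic, a transcription factor, Tsku and Mtss1 had 9 each and Rxra, the partner of many nuclear receptors, had 8. Rusc2, Zbtb16, Zmiz1 and Rbm47 had 7 each.

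In the RNA of the same mice and 1 further 3 week mouse, these genes did not move together. RNA was measured as FPKM, and 11166 genes were tested with limma on log2(FPKM + 1). Between 3 weeks and the controls, 3284 genes (29.4%) were higher in the controls and 1301 (11.7%) lower. This split moved with the library of 3 week mouse 2, whose median log2(FPKM + 1) was 2.15 against 2.41 to 2.63 in the other 17. The median over all tested genes was 0.14 log2 units above 0. With libraries centred on their median, an alternative chosen after seeing the data, 2143 genes were higher and 2646 lower. Without mouse 2 the counts were 2163 and 1816. Tsku, a secreted protein, rose from 6.45 ± 1.62 FPKM (SD, n = 3) to 19.8 ± 6.77 (SD, n = 6), with an adjusted p of 0.00164 by limma. Rbm47, an RNA-binding protein, rose from 7.06 ± 0.989 to 12.6 ± 1.58 FPKM (adjusted p 0.000377). Mtss1 fell from 32.4 ± 3.39 to 23.2 ± 4.91 FPKM (adjusted p 0.00891), although its groups overlapped. Uninjected WT adults of 15 weeks had 34.9 ± 2.17 FPKM (SD, n = 3) of Mtss1, with a limma adjusted p of 0.616 against 3 weeks.

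The other genes with most lost tiles gave weaker differences or none that passed. Nfic (11.4 to 14.6 FPKM) and Zmiz1 (4.26 to 6.46 FPKM) passed with adjusted p of 0.0452 and 0.0387, and no longer with centred libraries (0.214 and 0.155). Ass1 was at 593 and 530 FPKM, Ece1 at 63.3 and 64.3 and Rxra at 55.6 and 57.0, with adjusted p from 0.569 to 0.812. Zbtb16 (10.4 and 6.19 FPKM) did not pass either, and Rusc2 (6.44 and 5.05 FPKM) passed as lower in the controls only with centred libraries (limma adjusted p 0.0219, against 0.145). Over all 875 genes with a lost tile and a tested RNA, 366 (41.8%) were higher in the controls and 81 (9.26%) lower, beside 30.3% and 11.7% of all 9283 genes with a tested tile. With centred libraries the shares were 31.4% and 16.5%, beside 19.7% and 23.5%. Of 138 genes with a gained tile, 37 were higher and 24 lower, but 24 and 40 with centred libraries, and 26 and 32 without 3 week mouse 2, so their balance turned with the scaling.

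Lipid genes lost methylation at many members. Of the 32 with a tested tile in the list of lipid synthesis and oxidation, 15 owned a lost tile (46.9%, beside 6.51% of all genes), with a median of 16 tested tiles per member. Of the 35 with a tested RNA, 18 were higher in the controls and 3 lower, beside 29.4% and 11.7% of all genes tested. With centred libraries the counts were also 18 and 3. The median difference in RNA was 0.55 log2 units beside 0.14 over all genes. Scp2, a sterol carrier protein, owned 5 lost tiles, Ppara, the receptor that drives fatty acid oxidation, 5, and Fto 4. In the Scp2 tile printed above, methylation was 85.1% and 89.1% at 3 weeks and 3.15%, 4.00%, 1.28%, 4.55%, 0% and 15.1% in the controls. No overlap between the ages is required of every lost tile. Scp2 RNA was 295, 192 and 280 FPKM at 3 weeks and ran from 382 to 1288 FPKM in the controls, with no overlap (adjusted p 5.45e-05 by limma). Ppara RNA was 28.2 and 28.1 FPKM and did not pass.

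Scd1, which desaturates stearate, and Elovl6, which elongates palmitate, had the largest RNA rises among the lipid genes with a lost tile. Scd1 was at 4.63, 3.21 and 8.03 FPKM at 3 weeks and between 854 and 1997 FPKM in the controls, a log2 difference of 7.74 ± 0.35 (SE) with an adjusted p of 1.72e-09. Its 2 lost tiles, one in a UTR and one in a coding exon, differed by 38.2 points on average, near the limit. Elovl6 rose from 0.297 ± 0.0984 to 12.4 ± 3.00 FPKM (adjusted p 1.72e-09). In its intronic tile at chr3:129237301-129237400 methylation was 65.8% and 53.7% at 3 weeks and 0% or 0.730% in the controls. This tile was low in the other libraries, with 4.69% in newborn WGBS, at most 15.9% in the DKO mice and 0% in InsR KO, culture, fat and neutrophils, and none of these came near the 3 week mice. Its other lost tile was at 71.4% and 88.6% at 3 weeks and 0% to 45% in the controls, with 89.1% in newborn WGBS. In Acly, which makes cytosolic acetyl-CoA, the printed tile was at 94.1% and 100% at 3 weeks, 13.3% in a control and 0% in the 5 others. This tile was also low in fat (14.3%) and neutrophils (7.14%).

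Acacb, the acetyl-CoA carboxylase of mitochondria, was the lipid gene with gained tiles, 4 in all, and its RNA rose too. Its printed exonic tile was at 0% and 28.1% at 3 weeks and at 42.9% to 81.5% in the controls. Neither printed tile passed limma (adjusted p 0.233 for the intronic and 0.212 for the exonic one). Adult WT WGBS was only 26.4% and 21.1% there, with newborn at 14.9% and 9.94%. At chr5:114698401-114698500 and chr5:114698501-114698600, which share a WGBS value, newborn was at 46.1% and adult WT at 78.8%. The first of these passed limma (adjusted p 0.0417) and the second did not (0.324). RNA was 0.302, 0.616 and 0.633 FPKM at 3 weeks and between 15.0 and 29.0 FPKM in the controls (adjusted p 1.16e-08). Dgat1 was the other lipid gene with a gained tile.

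Insulin signaling genes, which relay the hormone from its receptor to metabolism, owned lost tiles in 7 of 20 members (35%, beside 6.51% of all genes). They held 16 lost tiles in all, with a median of 23.5 tested tiles per member against 11 over all genes. Insr encodes the receptor itself. Its printed tile was at 71.4% and 90.3% at 3 weeks. The controls had 4.63%, 0.917%, 0%, 0% and 0%, and the female control 30.3%. Foxo3, a transcription factor held in the cytoplasm by insulin, had a tile at 98.3% and 100% at 3 weeks, 10.7% in 1 control and 0% in the 5 others. Gsk3b, a kinase of glycogen synthase, was at 96.4% and 84.1% at 3 weeks and from 0% to 26.9% in the controls. Its printed tile holds 1 CpG pair, and WGBS over the 200 bp there was 91.9% in newborn and 51.5% in adult WT. Pik3r1, a regulatory subunit of PI3-kinase, also owned 3 lost tiles. RNA of Gsk3b rose from 2.59 ± 0.553 to 3.68 ± 0.187 FPKM (adjusted p 0.00269). Pik3r1 fell from 10.7 to 7.36 FPKM (adjusted p 0.0442, and 0.0679 without the female control). Insr (15.0 and 19.6 FPKM) and Foxo3 did not pass, with limma adjusted p of 0.0810 and 0.660. Of the 20 genes, 9 were higher and 4 lower in the controls, or 4 and 5 with centred libraries. Over all genes tested, 29.4% were higher and 11.7% lower.

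Urea cycle and amino acid genes had the highest share, 9 of 17 (52.9%, beside 6.51% of all genes), with 25 lost tiles. Gnmt, the glycine methyltransferase, had 100% in both 3 week mice at the first printed tile and 0% to 33.3% in the controls. The second was at 91.4% and 78.1% against 5.41% to 19.4%. The tile beyond Ass1 was at 80.7% and 95.7% against 8.45% to 25.0%. Prodh, which begins proline breakdown, and Hal, which begins histidine breakdown, owned 3 lost tiles each. In RNA, 4 of 21 genes were higher and 2 lower, beside 29.4% and 11.7% of all genes tested. With centred libraries 3 were higher and 6 lower. Hal rose from 98.4 to 143 FPKM (adjusted p 0.0264, and 0.0551 centred). Uninjected adults of 15 weeks had 91.5 FPKM of Hal, with a limma adjusted p of 0.713 against 3 weeks. Gnmt (882 and 811 FPKM) and Prodh (89.7 and 67.6 FPKM) did not pass, although Prodh was called lower in the controls with centred libraries (limma adjusted p 0.000777).

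Liver-enriched transcription factors owned lost tiles in 8 of 24 members (33.3%, beside 6.51% of all genes). Their median was 25.5 tested tiles per member, against 11 over all genes, so they also offered more places to change. Hnf4a, a master regulator of hepatocyte genes, had 2, and the one in a coding exon was at 72.8% and 88.6% at 3 weeks and 0% to 7.63% in the controls. Foxa3 had 3 and Zbtb20, a repressor of the fetal gene Afp, had 2. RNA of Hnf4a (124 and 121 FPKM) and Foxa3 (17.4 and 15.7 FPKM) did not pass, whereas Zbtb20 rose from 1.41 ± 0.390 to 3.51 ± 1.07 FPKM (adjusted p 0.0145, and 0.0539 centred). In this list 8 of 23 genes were higher and 1 lower, or 5 and 4 with centred libraries, beside 29.4% and 11.7% of all genes tested.

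For cholesterol and bile acids, 7 of 22 genes owned a lost tile (31.8%, beside 6.51% of all genes), with a median of 9.5 tested tiles. Cyp8b1, which sets the share of cholic acid, had 2 lost tiles in its coding exon and rose from 61.6 ± 13.8 to 202 ± 26.4 FPKM (adjusted p 1.52e-06). Nr5a2, a nuclear receptor, rose from 8.15 to 11.5 FPKM (adjusted p 0.0151, and 0.0800 without 3 week mouse 2). Nr1h4, the bile acid receptor FXR, had 2 adjacent lost tiles with a mean difference of 74.9 points, and its RNA (47.6 and 40.2 FPKM) did not pass (limma adjusted p 0.233), although it did with centred libraries (0.0396). Of 24 genes, 13 were higher and 4 lower, or 12 and 7 with centred libraries, beside 29.4% and 11.7% of all genes tested.

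Plasma protein genes of the acute phase, complement and coagulation owned lost tiles in 8 of 25 members (32.0%, beside 6.51% of all genes). Orm1, which encodes the acute phase protein orosomucoid, had a tile in a coding exon at 91.2% and 71.4% at 3 weeks and 0% in all 6 controls. Its RNA was 27.5, 133 and 55.8 FPKM at 3 weeks and 584 to 937 FPKM in the controls (adjusted p 5.66e-06). C8b, a chain of complement component 8, rose from 33.7 ± 0.520 to 151 ± 44.7 FPKM (adjusted p 9.25e-07) and had 2 lost tiles. C4b (449 and 459 FPKM) and Fga (1496 and 1970 FPKM), with 4 each, did not pass, and Fga was called higher without 3 week mouse 2 (limma adjusted p 0.00801). Hamp, the iron hormone hepcidin, rose from 5.48 ± 2.95 to 355 ± 302 FPKM (adjusted p 0.00061), but uninjected adults of 15 weeks had 25.7 ± 40.9 FPKM (SD, n = 3) and gave an adjusted p of 0.894. In this list 11 of 34 genes were higher and 11 lower, or 10 and 13 with centred libraries, beside 29.4% and 11.7% of all genes tested.

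The remaining lists had fewer lost tiles, and their counts stand beside the 6.51% of all genes that owned one. Median tested tiles per member lay between 3 and 21 in them, against 11 over all genes. Xenobiotic P450 and conjugation genes owned one in 5 of 23 members (21.7%), among them Nr1i3, the receptor CAR, with 3. Nr1i3 RNA fell from 116 ± 37.7 to 56.4 ± 42.7 FPKM (adjusted p 0.00565), with 141 FPKM in the female control and 30.8 to 52.4 in the 5 others. Uninjected adults of 15 weeks had 69.3 FPKM of Nr1i3, with a limma adjusted p of 0.121 against 3 weeks. Glucose genes had 4 of 17, with 2 lost tiles each in Mlxipl, the carbohydrate-response factor ChREBP, and in Pklr, liver pyruvate kinase. Pklr rose from 28.7 ± 6.38 to 75.3 ± 10.2 FPKM (adjusted p 5.01e-05) and Mlxipl (84.5 and 116 FPKM) did not pass. The growth hormone and IGF axis had 5 of 15 (Ghr, Igfals, Stat5a, Jak2 and Prlr), with Igfals, the carrier of IGF1, at 69.8 and 75.7 FPKM. Apolipoproteins had 4 of 14, Wnt and zonation genes 2 of 19, DNA methylation enzymes 2 of 19, with 2 tiles in Dnmt3a (2.24 and 2.21 FPKM), and fetal and neonatal liver genes 2 of 15. Circadian clock genes had 1 of 17, with 2 tiles in Nr1d2 (8.04 and 11.5 FPKM), and cell cycle genes 1 of 23, with 2 tiles in Ccnd1, a cyclin at 5.67 FPKM at 3 weeks, 0.943 to 3.67 FPKM in 5 controls and 20.1 FPKM in the female one. Male-biased genes had 2 of 13 and female-biased genes 1 of 18.

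RNA of these lists moved in both directions, beside the 29.4% of all genes higher and 11.7% lower in the controls. Cell cycle genes were lower in the controls in 17 of 24 members and higher in 0, or 20 and 0 with centred libraries, and fetal and neonatal liver genes were lower in 12 of 16 and higher in 1. Male-biased genes were higher in 18 of 21 and female-biased genes lower in 13 of 22, the axis on which sex and age cannot be told apart. Xenobiotic genes were higher in 17 and lower in 7 of 37, glucose genes 3 and 3 of 21, growth hormone and IGF genes 3 and 4 of 14. Apolipoproteins were higher in 7 and lower in 1 of 17, Wnt and zonation genes 5 and 1 of 16, DNA methylation enzymes 4 and 3 of 16, and clock genes 5 and 6 of 17. With centred libraries the higher and lower counts were 15 and 12 for xenobiotic genes, 3 and 5 for glucose genes, 3 and 6 for growth hormone and IGF genes, 6 and 4 for apolipoproteins, 4 and 2 for Wnt and zonation genes, 3 and 5 for DNA methylation enzymes and 3 and 7 for clock genes.

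Genes that owned a lost tile included large RNA changes in both directions. Slc22a30, an organic anion transporter, had 2 adjacent intronic lost tiles with a mean difference of 91.0 points and rose from 6.92 ± 1.92 to 78.9 ± 9.54 FPKM (adjusted p 1.34e-09). Its first tile was at 96.9% and 100% at 3 weeks, 1.54% in 1 control and 0% in the 5 others. Aox1, aldehyde oxidase, owned 5 lost tiles of 9 tested and rose from 2.49 ± 0.520 to 30.7 ± 3.51 FPKM (adjusted p 1.67e-09). Cux2, a female-biased liver transcription factor, fell from 13.7 ± 4.58 FPKM at 3 weeks to between 0 and 0.0165 FPKM in the 5 male controls and 5.56 FPKM in the female control (adjusted p 5.39e-05). Its lost tile was at 33.3% and 63.5% at 3 weeks, 0% in the female control and 14.1% in newborn WGBS. A link between this tile and the RNA was not tested.

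Peg3, an imprinted gene, fell from 14.4 ± 0.869 to 1.39 ± 0.920 FPKM (adjusted p 9.19e-07) and owned 1 lost and 1 gained tile. Neither tile passed limma (adjusted p 0.0551 and 0.670), and the gained one ran from 12.1% to 78.3% in the controls. Newborn and adult WT WGBS were at 42.3% and 41.7% at the lost tile and at 41.0% and 38.8% at the gained one. Pde6c, a cone phosphodiesterase, fell from 5.83 ± 1.77 to 0.0430 ± 0.0474 FPKM, and Mmd2 from 12.7 ± 3.89 to 2.10 ± 0.601 FPKM, with adjusted p of 9.92e-10 and 2.35e-06. Serpina1a and Serpina1e, near-identical copies of the α1-antitrypsin gene, were at 2504 and 1759 FPKM at 3 weeks and are listed at 0 in all 6 controls. Such genes share reads, and hepatocytes use them heavily, so these values are uncertain and no fold is given.

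**Figure D5:**
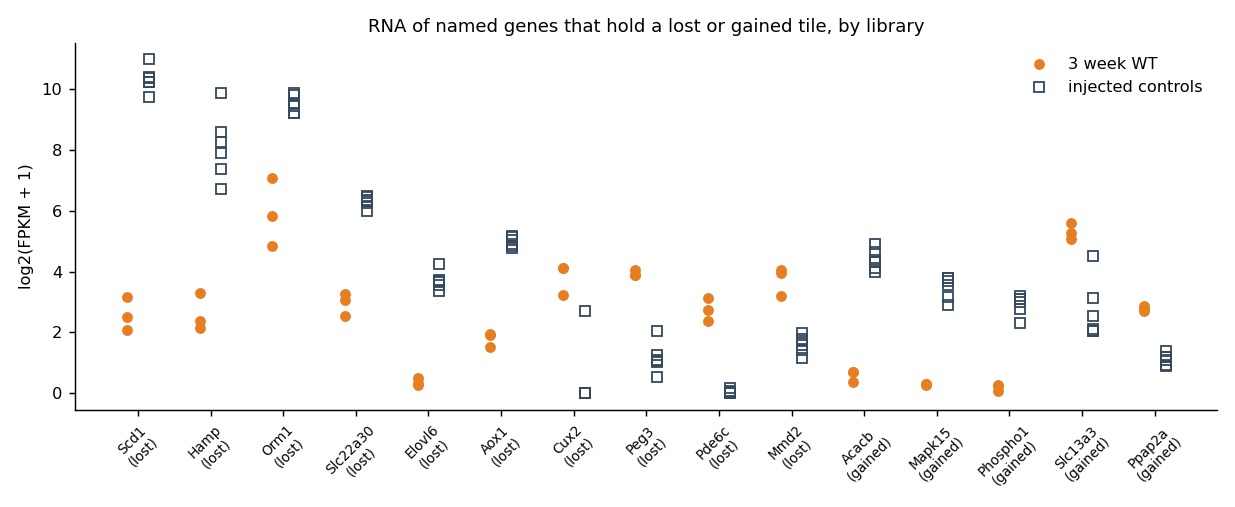
RNA as log2(FPKM + 1) in the 3 libraries of 3 week WT (filled circles) and the 6 injected controls (open squares) for genes that own a lost or gained tile and have the largest changes without overlap. Scd1 lies between 3.21 and 8.03 FPKM at 3 weeks and between 854 and 1997 FPKM in the controls. Cux2 and Slc13a3 each have 1 control, the female one, between the groups. Serpina1a and Serpina1e, which share reads, are left out.

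The longest runs of gained tiles lay in or beside Cyp26c1, Rnf39, Mbnl2, Ngef and Acacb. In Rnf39 4 touching tiles at chr17:37084101-37084500 averaged 10.0% at 3 weeks and 63.9% in the controls, while newborn WGBS was at most 3.97% and adult WT WGBS between 59.4% and 75.7%. In Cyp26c1, a retinoic acid hydroxylase, 4 tiles at chr19:37767301-37767700 went from 8.07% to 55.1%. In Mbnl2, a splicing regulator, 3 tiles at chr14:120788201-120788500 went from 0.769% to 58.1%, with 0%, 3.45% and 1.16% in 3 week mouse 1 and 0% at each in mouse 2. Newborn WGBS was between 7.07% and 14.2% and adult WGBS between 36.0% and 54.7% there. In Ngef and Neu2, which overlap, 3 tiles at chr1:89406601-89406900 went from 15.8% to 56.4%.

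RNA of genes with gained tiles moved in both directions. Mbnl2 rose from 2.07 ± 0.186 to 8.56 ± 1.29 FPKM (adjusted p 9.34e-08) and Rnf39 from 2.14 ± 0.592 to 4.25 ± 0.600 FPKM (adjusted p 0.00531). Mapk15 rose from 0.225 ± 0.0183 to 10.5 ± 2.64 FPKM and the phosphatase gene Phospho1 from 0.156 ± 0.0823 to 6.69 ± 1.55 FPKM, with 3 gained tiles each and adjusted p of 1.36e-08 and 1.61e-08. Cyp26c1 is listed at 0 in all 3 libraries of 3 weeks and at most at 0.310 FPKM in the controls. Slc13a3, a dicarboxylate transporter, fell from 39.0 ± 7.38 to 7.34 ± 7.32 FPKM (adjusted p 0.000468), with 21.8 FPKM in the female control, and Ppap2a, a lipid phosphatase, from 5.91 ± 0.419 to 1.18 ± 0.292 FPKM (adjusted p 1.27e-06). Each owned 1 gained tile.

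Markers of other cell types differed between the ages. Summed FPKM of 6 endothelial markers were 12.4 to 21.4 at 3 weeks and 3.81 to 10.2 in the controls, and 5 of the 6 were higher at 3 weeks. Those of 6 stellate and fibroblast markers were 19.5 to 62.4 and 3.71 to 25.3. Macrophage markers summed to 5.70 to 15.2 and 1.63 to 8.11, leukocyte markers to 3.71 to 4.94 and 13.3 to 19.4, cholangiocyte markers to 5.24 to 9.42 and 6.93 to 21.2, and erythroid markers to 8.31 to 11.7 and 6.63 to 71.8. Neutrophil markers stayed at or under 0.384 in every library. Hepatocyte markers summed to between 14000 and 20783 at 3 weeks and 11389 and 16146 in the controls, with Serpina1b listed at 0 in the controls. At tiles with 90% or more in adult hepatocyte WGBS and under 10% in fat and neutrophils, the 3 week mice averaged 85.5% and 87.5% and the controls 85.5% to 89.7%. At 476 tiles of the opposite pattern, which by construction can include tiles that lose methylation after 3 weeks, they averaged 16.8% and 17.8%, with medians of 3.63% and 5.00%, and the controls 3.97% to 5.97%, with medians of 0%. The part of other cell types in the lost tiles was not tested.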

How the data were processed

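RRBS of hepatocytes from 3 week WT and injected adult mice was the main measurement. For the methylation tables, the authors trimmed reads (Trim Galore 0.3.3), aligned them to mm9 (BSMAP 2.74) and deposited the methylated fraction per tile, with a minimum of 10 CpG readings in 100 bp tiles for RRBS and 15 in 200 bp tiles for WGBS. Coverage is not given, so the depth behind a fraction is unknown and no counting interval was computed for it. Per mouse, 509577 to 606869 tiles had a value, and the table holds autosomes alone. For RNA-Seq, the authors trimmed with cutadapt 1.15, aligned with TopHat2 and deposited FPKM from Cufflinks. Peak lists were deposited by the authors with a signal in tags, from Bowtie2 2.2.4 alignments and HOMER, 1 list per library. Only peak positions were used here.

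Columns of the RRBS table carry animal numbers, which were matched to the expression table, where the condition stands beside the number. Left unused were 43 columns of RRBS values and 6 of RNA values. The labels do not say more on how separate the mice of a group were than that they are separate samples.

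Changed tiles were called as a difference of 35 points with no overlap. Tiles were also fitted with limma 3.58.1 (R 4.3.3) on fractions, with Benjamini-Hochberg adjustment over all tested tiles. RNA was fitted with limma on log2(FPKM + 1) over the 18 assigned libraries, for genes that averaged 1 FPKM or more in some condition, and every adjusted p for RNA is from this fit at a limit of 0.05. Mean methylation per mouse was compared by an exact permutation test. Tables were handled in Python 3.11.15, peaks were overlapped by at least 1 bp, and scripts were tested on simulated data.

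Named genes were the 12 with most lost and the 6 with most gained tiles, up to 4 genes with at least 2 changed tiles from each of 17 lists, and, among genes called in RNA without overlap, the 6 largest rises and 6 largest falls with a lost tile and the 3 of each with a gained tile. Members, rules and lists were chosen with earlier results of these data known. Alternatives changed the difference limit, the test, the adult group, the mice required, the RNA filter and scaling, and left out each mouse. Some items that this rule names are not reported here.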

Additional observations from a re-analysis of the deposited data

Results flagged for a closer look

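In 58 groups of 6 control values, 8 had 1 mouse far from the others, where Dixon's 95% limit marks about 1 group in 20 by chance. The groups were RNA of named genes and mean methylation over lost, gained and all tested tiles. Part of the named genes were chosen for large RNA changes. In 7 of the 8 that mouse was control 3 of those injected at 3 weeks, the one with Xist. It had 141.422 FPKM of Nr1i3 against 30.8 to 52.4 in the other controls, 20.0982 FPKM of Ccnd1 against 0.943 to 3.67, and 937.297 FPKM of Hamp against 103 to 385. It had 5.5563 FPKM of Cux2 against at most 0.0165, 3.15358 FPKM of Peg3 against 0.466 to 1.41, 0.135915 FPKM of Pde6c against 0.0102 to 0.0470, and 21.8171 FPKM of Slc13a3 against 3.11 to 7.81. The eighth value was Elovl6 at 18.0929 FPKM in control 1 injected at 3 weeks, against 9.34 to 12.2. Sex and animal cannot be told apart with 1 such control.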

How the results depend on the processing

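Lost tiles numbered 4377 at a limit of 25 points, 1313 at 50 points, 1112 with limma on fractions and 496 with limma on logit values. Gained tiles numbered 2142, 84, 96 and 33 in the same order, and 1045 with the controls injected at 1 day alone, 1030 with those injected at 3 weeks alone and 1266 when 4 controls sufficed. Leaving out 1 mouse gave 2730 to 4186 lost and 718 to 4373 gained tiles. The count of lost tiles moved by over 1.5 times without 3 week mouse 1 (4186), and that of gained tiles without 3 week mouse 1 (4373) or mouse 2 (2302). A call with 1 mouse of 3 weeks asks less of the data by construction. The difference in mean methylation was -0.226 to -0.130 points with 1 mouse left out, -0.0657 with the controls injected at 3 weeks alone and -1.43 (p = 0.0714) as the median over tiles, and turned to 0.781 points (exact permutation p = 0.179) over all tiles with a value in the mouse. Genes higher at 3 weeks numbered 2129 with no filter, 818 with the 3 week and control libraries alone and 2646 with centred libraries, and 962 to 1816 with 1 library left out. Genes lower at 3 weeks numbered 2143 with centred libraries and 2163 to 3351 with 1 left out, the lowest being without 3 week mouse 2. The cause was not tested. Calls that all chromosomes would give were not run, since the RRBS table holds autosomes alone. No paired analysis was possible because the columns carry animal numbers that are not shared between groups. Unknown coverage and 2 mice of 3 weeks limit the precision of every tile.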

Other observations

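A small group of lost tiles was low in newborn WGBS. At 33 lost tiles newborn WGBS was under 20%, with a mean of 13.2%, and adult WT WGBS averaged 11.2%. The 3 week mice averaged 58.5% and 55.6% there and the injected controls 10.8%. The DKO mice averaged 45.3% and 47.6% after injection at 1 day and 40.5% and 36.7% after injection at 3 weeks, fat 34.9% and neutrophils 43.6%. Tiles in Elovl6, Cux2 and Pde6c were among them.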
